A study of Mactra quadrangularis with 9 samples.

Results

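Gill of the surf clam Mactra quadrangularis, named Mactra veneriformis in the series text, was compared after 24 h at severe hypoxia, 2 mg/L dissolved oxygen, and in aerated control water at 7.5 mg/L. The comparison used 6 of the 9 libraries of the series, 3 at 2 mg/L and 3 controls, which were taken by their oxygen labels and not by any measured value. The other 3 libraries, from clams at 4 mg/L, shared the statistical fit and serve here to show where 2 mg/L differed from milder hypoxia. Of 24722 genes in the deposited table, 15397 had a mean of at least 1 FPKM (fragments per kilobase of gene, scaled to sequencing depth) over the 9 libraries and were tested. All tanks were kept at 20 ± 1 °C and a salinity of 27 with 40 unfed clams per parallel. Nitrogen lowered the oxygen under a cover of plastic wrap, a meter was read every 4 h, and each target was held within 0.2 mg/L. The sources used here do not say how many clams stand behind a library or whether libraries sharing a group are from different animals. All p-values are thus set against the spread between these libraries alone, part of which may be technical.

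Bivalves close their shells and survive long periods without oxygen by slowing their metabolism and by fermenting glycogen and amino acids to succinate, alanine and opines. Phosphoenolpyruvate carboxykinase (PEPCK) stands at the branch that sends carbon towards succinate. The transcription factor HIF-1, whose alpha subunit is degraded when oxygen is present, regulates genes in the response of animal cells to low oxygen. The gill takes up oxygen, moves water with beating cilia, exchanges ions and is the first tissue to meet microbes in the water.

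The libraries held between 26994566 and 32246147 counts. Over genes, log levels of libraries of a group correlated at 0.977 to 0.981 in the 2 compared groups, and control libraries correlated with 2 mg/L libraries at 0.851 to 0.856 (descriptions over genes, which are not independent). Of 74 genes of ciliary structure, 0 were without counts in the control or the 2 mg/L libraries. Their summed level was 8422 to 8493 CPM in control and 7732 to 7771 CPM at 2 mg/L. In control 0 of 15 muscle and 2 of 29 gonad markers were at 0 counts. The presence of ciliary counts therefore cannot tell gill from other tissue, and the gill label is taken as given. Levels are given as CPM, counts brought to a common library size and scaled by the trimmed mean of M-values (TMM), a factor that adjusts library size for a few highly abundant genes, and are given as mean ± SD over 3 libraries. Fold changes and adjusted p-values are from edgeR's quasi-likelihood test with Benjamini-Hochberg adjustment over the 15397 genes, and a gene was called at an adjusted p under 0.05.

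At 2 mg/L 4847 genes rose (31.5% of those tested) and 4924 fell (32.0%), and 9771 changed in all (63.5%). Changes of at least 2-fold were called for 2131 genes upward (13.8%) and 1741 downward (11.3%). The median log2 change over all genes was -0.03. Without TMM, scaling to library totals moved that median to -0.23 and split the calls into 3709 higher and 6621 lower, and limma on log2(FPKM + 1) gave 3727 and 6641, so a small change of a list is read here only with that shift in view. With so many genes called, a list is described by how its counts depart from 31.5% and 32.0%. Against 4 mg/L, 4871 genes were higher at 2 mg/L (31.6%) and 4942 lower (32.1%), 63.7% in all. The 3 libraries of one group lay wholly above or below the other group's for 10517 genes at 2 against 7.5 mg/L, 68.3% of those tested (33.5% higher and 34.8% lower at 2 mg/L), so a lack of overlap is itself common. Fewer cells of a type and less RNA per cell cannot be told apart in these bulk libraries.

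**Figure D1:**
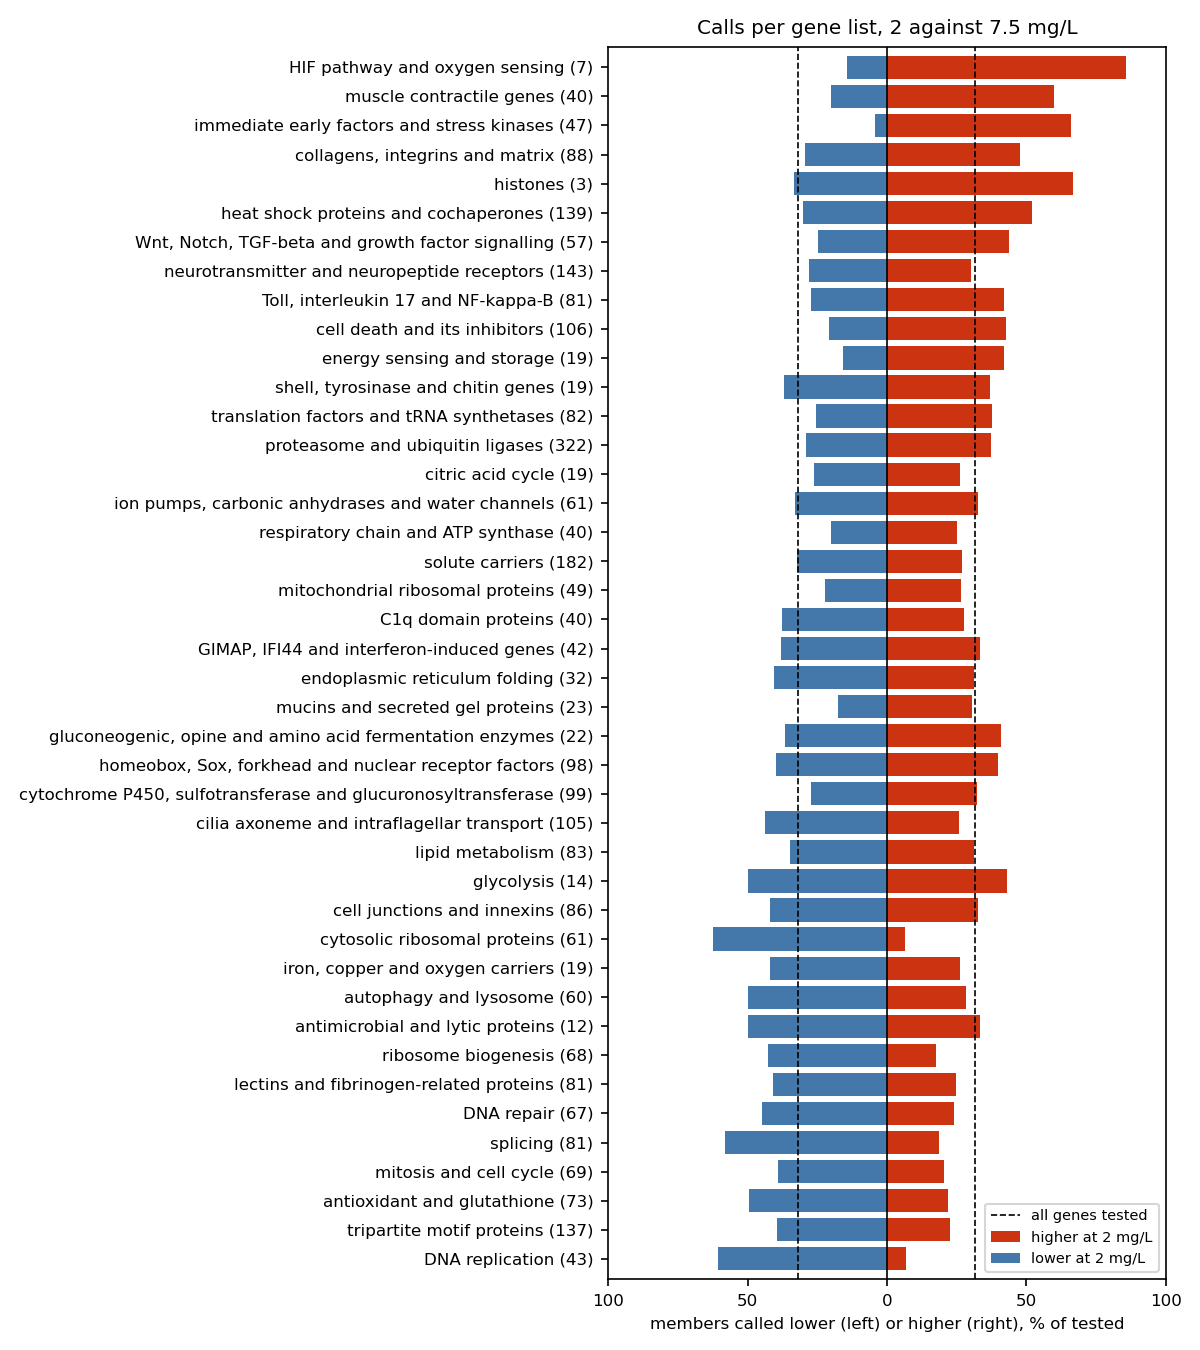
Share of tested members called higher (red, right) or lower (blue, left) at 2 against 7.5 mg/L for each of 42 gene lists, in percent, with the number tested in parentheses; dashed lines are the shares over all genes tested, 31.5% and 32.0%. Lists are ordered by median log2 change, with HIF genes at the top and DNA replication at the bottom.

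Most tested genes of the list for the HIF pathway and oxygen sensing rose at 2 mg/L against control, among them the alternative oxidase. Of 7 tested members of the HIF list 6 rose and 1 fell, with a median log2 change of 1.33. Against 4 mg/L 2 were higher, 2 were lower and 3 did not pass (median log2 difference -0.06). The alternative oxidase Mve07G002200, which passes electrons from ubiquinol to oxygen without pumping protons, was at 55.7, 52.1 and 50.6 CPM in the control libraries, 125, 108 and 124 CPM at 4 mg/L and 231, 240.1 and 247 CPM at 2 mg/L. The 3 groups did not overlap and were ordered by oxygen, with 2 mg/L 4.54-fold above control (adjusted p = 1e-14). HIG1 domain family member 1A (Mve07G012370, chromosome 7, 43703717 to 43710169), an inner membrane protein that in mammals is induced by hypoxia and binds cytochrome c oxidase, was at 8.1, 10.1 and 10.6 CPM in the control libraries, 29.7, 31.7 and 28.5 CPM at 4 mg/L and 51.6, 52.9 and 49.6 CPM at 2 mg/L. It too was ordered by oxygen without overlap, 5.33-fold above control (log2 change 2.42 ± 0.10 (SE), adjusted p = 2.12e-12) and 1.72-fold above 4 mg/L (adjusted p = 1.35e-06). BNIP3 (Mve13G003520), a receptor for the removal of mitochondria, reached 10.7 ± 1.77 CPM from 2.57 ± 0.818 CPM in control, 4.19-fold (adjusted p = 2.72e-07). HIF-1alpha (Mve02G016380), named after its values were seen, was at 93.1 ± 2.88 CPM in control, 253 ± 8.16 CPM at 4 mg/L and 196 ± 11.9 CPM at 2 mg/L. It was 2.11-fold above control and lower at 2 than at 4 mg/L (adjusted p = 4.83e-06). The chaperone HYOU1 (Mve07G000120), which folds proteins in the endoplasmic reticulum and was the list's 1 fall, went from 24.1 ± 1.49 CPM in control and 49 ± 0.964 CPM at 4 mg/L to 13.8 ± 1.92 CPM. In central metabolism 10 of 40 respiratory chain and ATP synthase genes rose and 8 fell, with log2 changes between -0.46 and 0.63. Under total-count scaling those counts were 4 and 23. In the citric acid cycle 5 of 19 rose and 5 fell, in glycolysis 6 of 14 rose and 7 fell, and among 22 gluconeogenic, opine and amino acid fermentation enzymes 9 rose and 8 fell (under total-count scaling, higher and lower, citric acid cycle 2 and 9, glycolysis 5 and 8, fermentation 7 and 10).

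Within those lists PEPCK and an octopine dehydrogenase gene rose, and a neighbouring octopine dehydrogenase gene and pyruvate carboxylase fell. PEPCK (Mve06G010350) was at 281, 265 and 259 CPM in the control libraries, 4938, 4884 and 5182 CPM at 4 mg/L and 11238, 11814 and 11456 CPM at 2 mg/L. It was higher at each lower oxygen level with no overlap, 42.9-fold above control and 2.3-fold above 4 mg/L at 2 mg/L (adjusted p = 3.8e-22 and 6.63e-15). Octopine dehydrogenase (Mve03G010040, chromosome 3, 32407366 to 32411296), which joins pyruvate to arginine and so regenerates NAD, was at 17.7, 18.2 and 17.7 CPM in the control libraries, 26.4, 25.9 and 22.8 CPM at 4 mg/L and 52.4, 52.6 and 62.8 CPM at 2 mg/L. Its 2 mg/L libraries lay above all others, 3.13-fold above control (adjusted p = 1.11e-10) and 2.23-fold above 4 mg/L (adjusted p = 7.05e-09). The next gene on that strand, Mve03G010050, has the same description, was named after its values were seen and lies under the rule's minimum level. It was at 5.75, 7.38 and 7.02 CPM in the control libraries, 3.58, 4.9 and 3.25 CPM at 4 mg/L and 1.94, 1.17 and 2.04 CPM at 2 mg/L, the 3 groups did not overlap, and it fell 3.91-fold (adjusted p = 6.63e-06), the largest fall in the list. Pyruvate carboxylase (Mve02G012180), which makes oxaloacetate from pyruvate, fell from 169.8 ± 1.91 to 120.0 ± 8.77 CPM, 1.41-fold lower. In the citric acid cycle the alpha subunit of NAD isocitrate dehydrogenase (Mve10G003070) rose 1.91-fold from 21.5 ± 1.72 to 41.2 ± 5.06 CPM, and the beta subunit of GDP-forming succinate-CoA ligase (Mve08G003890) fell 2.37-fold from 7.6 ± 0.744 to 3.19 ± 0.746 CPM.

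Arginine kinase, a subunit of AMP-activated kinase and a glucose transporter rose. In the energy sensing and storage list 8 of 19 rose and 3 fell, but, under total-count scaling, 5 and 8. Arginine kinase (Mve05G010230), which stores phosphate as phosphoarginine in molluscs as creatine kinase does in vertebrates, was at 1093, 1080.5 and 1078 CPM in the control libraries, 2863, 2835 and 3049.6 CPM at 4 mg/L and 2927, 2988 and 2976 CPM at 2 mg/L. Both hypoxic groups lay above control and overlapped each other: the gene rose 2.73-fold (adjusted p = 2.62e-16) and its difference from 4 mg/L did not pass (adjusted p = 0.503). The beta subunit of AMP-activated kinase (Mve02G015850), the sensor of falling ATP, rose 3.59-fold from 5.21 ± 0.735 to 18.7 ± 1.72 CPM. Sestrin-1 (Mve05G010100), which in mammals restrains the growth kinase mTOR, rose 2.15-fold from 41.8 ± 2.2 to 89.7 ± 5.33 CPM. The mTOR-like gene (Mve08G013440) fell 1.48-fold, from 50.6 ± 3.26 to 34.2 ± 4.23 CPM. Outside the naming rule and chosen after their values were seen, AMP deaminase 2 (Mve07G013590), which turns AMP into IMP, rose 4.93-fold to 7.96 ± 1.55 CPM, and a pyruvate dehydrogenase kinase (Mve07G004130), which switches off the entry of pyruvate into the citric acid cycle, rose 2.1-fold to 51.1 ± 1.52 CPM. A facilitated glucose transporter of family 2 (Mve04G001160, chromosome 4, 3036382 to 3053411) was at 10.7, 11.6 and 8.72 CPM in the control libraries, 52.5, 49.9 and 46.3 CPM at 4 mg/L and 94.9, 89.3 and 82 CPM at 2 mg/L. It was ordered by oxygen without overlap and stood 8.6-fold above control (adjusted p = 5.82e-14). Among hexokinases, which trap glucose in the cell, hexokinase-1-like Mve13G007880 rose 2.56-fold and hexokinase type 2 (Mve13G001100) 2.37-fold, the latter to a level below that at 4 mg/L (adjusted p = 1.21e-05).

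A lipid droplet protein rose, and fatty acid synthase and a peroxisomal oxidase fell. In the lipid metabolism list 26 of 83 rose and 29 fell (18 and 33 under total-count scaling), close to the shares over all genes. Perilipin-2-like Mve10G011370, a coat protein of lipid droplets, was at 162, 159 and 151 CPM in the control libraries, 306, 314 and 323 CPM at 4 mg/L and 469, 464 and 487 CPM at 2 mg/L. It rose in order of oxygen, 3.01-fold over control (adjusted p = 4.03e-15). Fatty acid synthase (Mve01G012410) was at 23.7, 29.3 and 28.4 CPM in the control libraries, 15.6, 17.5 and 20.6 CPM at 4 mg/L and 4.95, 5.7 and 5.56 CPM at 2 mg/L. It was lowest at 2 mg/L without overlap, 5.03-fold below control (adjusted p = 2.37e-10) and 3.32-fold below 4 mg/L (adjusted p = 1.07e-08). Peroxisomal acyl-CoA oxidase 1 (Mve06G008040), the first enzyme of peroxisomal fatty acid breakdown, fell 12.8-fold from 12.6 ± 1.29 to 0.978 ± 0.482 CPM. In the KEGG group of fatty acid elongation 15 of 24 genes fell and 3 rose (median log2 change -0.74), one of the 6 lowest medians among 123 KEGG groups of 15 to 300 tested genes. Its members included a 3-hydroxyacyl-CoA dehydratase (Mve10G011680) that fell 3.79-fold to 3.66 ± 1.38 CPM.

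**Figure D2:**
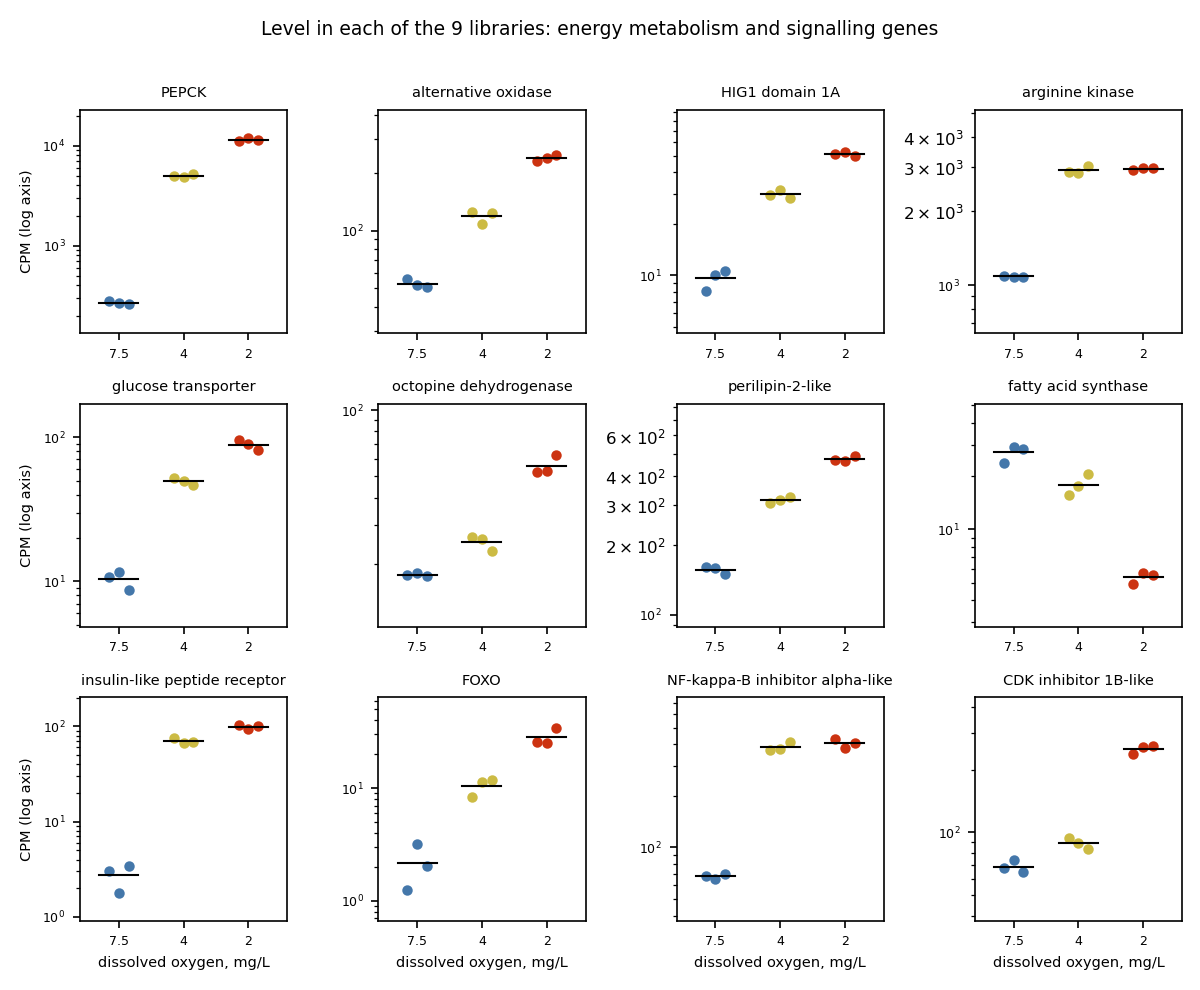
CPM (log axis) of 12 genes of energy metabolism and signalling in each of the 9 libraries, by dissolved oxygen in mg/L; points are libraries (blue 7.5, yellow 4, red 2 mg/L) and black lines group means. PEPCK, alternative oxidase and the glucose transporter rose at each step down in oxygen, the 4 and 2 mg/L libraries of arginine kinase and the NF-kappa-B inhibitor overlapped, and fatty acid synthase fell.

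Immediate early factors and stress kinases rose more often than they fell. In their list 31 of 47 rose and 2 fell, with a median log2 change of 0.64 (25 and 7 under total-count scaling). Against 4 mg/L 22 of them were higher and 6 lower. Leaving out control replicate 3, or replicate 2 or 3 at 2 mg/L, lowered the 2 falls against control to 1. ATF3 (Mve02G003040), a stress transcription factor, rose 5.5-fold from 63.6 ± 2.77 to 349 ± 11 CPM. A JNK-like stress kinase (Mve01G017000) was at 1.65 ± 0.269 CPM in control and 9.3 ± 0.818 CPM at 2 mg/L (5.59-fold). MAP3K14 (Mve12G011410), which in mammals starts non-canonical NF-kappa-B signalling, was at 2.42 ± 0.688 and 16.4 ± 0.18 CPM (6.83-fold). An insulin-like peptide receptor on chromosome 12 (Mve12G010380, chromosome 12, 36235147 to 36275822) was at 3.05, 1.79 and 3.41 CPM in the control libraries, 76.2, 67 and 68.4 CPM at 4 mg/L and 103, 93.1 and 99.9 CPM at 2 mg/L. Control libraries were low and both hypoxic groups high, 36-fold at 2 mg/L (adjusted p = 4.27e-15), with 2 mg/L 1.4-fold above 4 mg/L (adjusted p = 0.000363). Another gene of that description on chromosome 10 (Mve10G008380) rose 6.08-fold, from 19.8 ± 2.29 to 121 ± 3.15 CPM. FOXO (Mve05G011660), the transcription factor that insulin signalling keeps out of the nucleus, was at 1.26, 3.2 and 2.03 CPM in the control libraries, 8.31, 11.4 and 11.9 CPM at 4 mg/L and 25.7, 25.3 and 34 CPM at 2 mg/L. The 3 groups did not overlap, and it rose 12.9-fold (adjusted p = 8.67e-10). A fibroblast growth factor receptor (Mve12G003150) rose 4.99-fold to 154 ± 5.99 CPM and a SYK-like tyrosine kinase (Mve03G004960) 6.19-fold to 42 ± 2.24 CPM.

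Of 708 GO groups of 15 to 300 tested genes, the 6 with the highest median log2 changes included cellular response to mechanical stimulus (10 of 15 rose, 4 fell), peptidyl-threonine phosphorylation (13 of 18 rose, 2 fell), peptidyl-tyrosine autophosphorylation (18 of 25 rose, 2 fell) and protein tyrosine kinase activity (15 of 21 rose, 1 fell). The JNK-like gene and the NF-kappa-B inhibitor alpha-like gene were members of the first. Actin filament organization (19 of 29 rose, 4 fell) and defense response to Gram-negative bacterium (11 of 19 rose, 5 fell) completed the 6. Among KEGG groups the highest medians were those of focal adhesion (21 of 33 rose, 10 fell), regulation of actin cytoskeleton (15 of 29 rose, 8 fell) and AGE-RAGE signalling (36 of 60 rose, 10 fell). Nitrogen metabolism (8 of 17 rose, 3 fell), mitophagy (34 of 51 rose, 6 fell) and Toll-like receptor signalling (11 of 16 rose, 1 fell) followed. A diaphanous-like formin (Mve09G012300), a builder of actin filaments, rose 4.71-fold to 8.87 ± 0.514 CPM, and glutamine synthetase (Mve14G000320), which binds ammonia into glutamine, rose 2.28-fold from 513 ± 12.7 to 1168 ± 26.9 CPM. All 12 groups kept more rises than falls under total-count scaling. They are not separate evidence, since groups share members. Besides the mechanical stimulus group, the JNK-like gene was in those of peptidyl-threonine phosphorylation, mitophagy and AGE-RAGE signalling.

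Immune genes changed in both directions, also within families. In the Toll, interleukin 17 and NF-kappa-B list 34 of 81 rose and 22 fell, or 30 and 29 under total-count scaling. The NF-kappa-B inhibitor alpha-like gene (Mve09G000450, chromosome 9, 1329337 to 1333253), whose product holds NF-kappa-B in the cytoplasm, was at 68.3, 65.7 and 69.5 CPM in the control libraries, 373, 376 and 414 CPM at 4 mg/L and 429, 384 and 409 CPM at 2 mg/L. Both hypoxic groups lay above control and overlapped each other, 6.0-fold at 2 mg/L (adjusted p = 2.62e-16). The next gene on chromosome 9, described as cactus (Mve09G000460), the fly name of that inhibitor, rose 4.45-fold from 44.7 ± 2.65 to 199 ± 7.79 CPM. Genes described as toll-like receptor 4 went both ways: Mve14G013360 rose 6.31-fold to 10.6 ± 0.842 CPM and Mve01G014230 fell 5.08-fold to 4.39 ± 1.53 CPM. The latter was lower still at 4 mg/L, at 0.838 ± 0.574 CPM. A toll-like receptor W precursor (Mve09G013340) rose 2.68-fold from 183 ± 3.92 to 491 ± 39.8 CPM. The cytokine gene described as tumor necrosis factor (Mve15G005990) fell 4.02-fold, from 17.5 ± 0.656 to 4.36 ± 0.288 CPM, and was also below its 4 mg/L level (adjusted p = 1.17e-08). Serum amyloid A (Mve08G001030), an acute phase protein of vertebrates, was at 808, 847 and 846 CPM in the control libraries, 83.6, 88.3 and 80.0 CPM at 4 mg/L and 77.1, 78.7 and 87.8 CPM at 2 mg/L. Its 2 mg/L libraries lay 10.3-fold below control (adjusted p = 9.32e-18) and overlapped those at 4 mg/L.

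Against control, lectins and tripartite motif genes fell more often than they rose. Lectins and fibrinogen-related proteins fell in 33 of 81 cases and rose in 20 (under total-count scaling 40 and 15). A trio of sialic acid binding lectins close together on chromosome 6 fell 3.97-fold (Mve06G016050, to 19.1 ± 0.677 CPM), 3.23-fold (Mve06G015990, to 11 ± 0.685 CPM) and 2.67-fold (Mve06G016030, to 13.7 ± 2.21 CPM), while a C-type lectin (Mve13G011500) rose 7.06-fold to 32.7 ± 2.02 CPM. Lectin Mve06G016030 was lower still at 4 mg/L, at 7.49 ± 1.29 CPM. Of 40 C1q domain genes 15 fell and 11 rose, and tripartite motif genes fell in 54 of 137 and rose in 31 (median log2 change -0.46). Against 4 mg/L, 54 tripartite motif genes were higher at 2 mg/L and 35 lower (median log2 difference 0.13). In that comparison 20 C1q genes were higher and 10 lower, and 22 lectins and fibrinogen-related genes higher and 29 lower. An abundant tripartite motif 2 gene (Mve11G008840, chromosome 11, 24191885 to 24194991) was at 1169, 1115 and 1108 CPM in the control libraries, 1604, 1642 and 1688 CPM at 4 mg/L and 6363, 6335 and 6494 CPM at 2 mg/L. It rose 5.66-fold with no overlap (adjusted p = 3.19e-19). Another gene of that description on chromosome 11 (Mve11G002980) was at 29.9 ± 2.01 CPM in control, 0.527 ± 0.0516 CPM at 4 mg/L and 0 counts in the 3 libraries at 2 mg/L. With 3 counts in the group as the floor, its level was at least 835-fold lower. An NLRC4-like gene (Mve17G000010), related to an inflammasome sensor of mammals, was at 24.3, 23.4 and 23.4 CPM in the control libraries, 20.2, 19.5 and 18.7 CPM at 4 mg/L and 1.74, 1.69 and 1.36 CPM at 2 mg/L. The fall, 14.7-fold (adjusted p = 2.98e-13), was present at 2 mg/L against both other groups, with a 12.1-fold difference from 4 mg/L (adjusted p = 7.73e-13). Interferon-induced protein 44-like genes, induced by interferon in vertebrates, rose on chromosome 14: Mve14G007090 was 7.75-fold higher at 104 ± 9.84 CPM and Mve14G007110 4.6-fold higher at 339 ± 32.6 CPM, both also above 4 mg/L. The whole list of GIMAP, IFI44 and interferon-induced genes had 14 rises and 16 falls among 42, and among 12 antimicrobial and lytic genes 4 rose and 6 fell. Beside these immune genes, 4 of 9 tested haemocyte markers rose and 5 fell, and their summed level was 2001 to 2060.1 CPM in control, 3748 to 3768 CPM at 4 mg/L and 1441 to 1449 CPM at 2 mg/L. Of the 14 haemocyte markers matched, 3 were at 0 counts in control and 3 at 2 mg/L, and their part in the immune changes was not tested.

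The small heat shock protein HSP22 was much higher at 2 mg/L than in either other group, while genes of endoplasmic reticulum folding were more often lower than higher against 4 mg/L. Of 139 heat shock and cochaperone genes 72 rose and 42 fell, but 53 and 54 under total-count scaling. HSP22 (Mve16G010930, chromosome 16, 31181349 to 31183235), which holds unfolding proteins in solution, was at 3.68, 3.26 and 3.55 CPM in the control libraries, 3.68, 3.41 and 3.75 CPM at 4 mg/L and 83.9, 86.3 and 106 CPM at 2 mg/L. Control and 4 mg/L overlapped and 2 mg/L stood apart, 26.4-fold above control and 25.5-fold above 4 mg/L (adjusted p = 2.2e-15 and 2.75e-15). A partial HSP22 copy on chromosome 8 (Mve08G002290) went from 0.176 ± 0.305 to 15.6 ± 2.04 CPM. The HSP70 12B-like gene Mve09G013150 fell 17.5-fold to 4.11 ± 0.571 CPM. In endoplasmic reticulum folding 10 of 32 rose and 13 fell against control, whereas against 4 mg/L 23 were lower and 5 higher (median log2 difference -0.66). Protein disulfide-isomerase A4 (Mve12G009000), which forms disulfide bonds, was 2.15-fold below control at 33.2 ± 2.13 CPM, while the stress factor XBP1-like (Mve11G010540) was 1.72-fold above it at 3459.8 ± 93.2 CPM.

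A Bcl-2-like gene and a pair of genes for an autophagy cargo receptor rose, while the autophagy and lysosome list had more falls than rises. In the cell death list 45 of 106 rose and 22 fell, 38 and 36 under total-count scaling. A Bcl-2-like 2 gene (Mve12G000560), of a family that protects mitochondria from permeabilisation, rose 5.07-fold from 3.34 ± 0.518 to 16.9 ± 1.77 CPM. Autophagy and lysosome genes rose in 17 of 60 cases and fell in 30. The rises included a pair of sequestosome-1-like genes on chromosome 9, Mve09G009650 at 2.41-fold and Mve09G009340 at 2.36-fold, the latter from 304 ± 5.86 to 718 ± 12.6 CPM. Cathepsin L1-like Mve08G003730, a lysosomal protease, fell 3.26-fold to 2.65 ± 0.965 CPM. Digestive gland markers, among which cathepsin L is counted, fell in 16 of 26 cases and rose in 4, with a summed level of 2637 to 2688 CPM in control, 2791 to 2855 CPM at 4 mg/L and 2389.8 to 2436 CPM at 2 mg/L. Without cathepsin L3 (Mve05G015750), the highest of them, the sum was 692 to 719 CPM in control and 704 to 714 CPM at 2 mg/L, which overlap. Of 38 matched, 8 were at 0 counts in control and 7 at 2 mg/L, and their part was not tested. In the KEGG group of glycosaminoglycan degradation 22 of 33 genes fell and 4 rose, and in the GO group of sulfuric ester hydrolases 17 of 22 fell and 3 rose, with arylsulfatase J-like Mve15G008590 5.19-fold lower at 0.549 ± 0.477 CPM. Among 322 proteasome and ubiquitin ligase genes 120 rose and 94 fell, or 87 and 132 under total-count scaling. The E3 ligase UNKL (Mve01G006960) reached 22.1 ± 3.67 CPM (11.4-fold higher), and the CBL-like ligase (Mve07G010900), of a family that tags activated receptor kinases, 35.1 ± 3.29 CPM (9.09-fold).

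Genes of DNA replication fell more often than they rose, with the lowest median of the 42 lists. Of 43 tested, 26 fell, 3 rose and 14 did not pass (median log2 change -0.82). Against 4 mg/L 26 were lower and 2 higher. All 6 subunits of the MCM2 to MCM7 replicative helicase fell, 3 of them (MCM2, MCM3 and MCM4) named after their values were seen. MCM5 (Mve02G013640, chromosome 2, 42560363 to 42572513) was at 45.2, 45.6 and 42.8 CPM in the control libraries, 22.4, 19.6 and 21.3 CPM at 4 mg/L and 6.04, 7.19 and 5.8 CPM at 2 mg/L. The groups were ordered by oxygen without overlap, and the fall was 7.01-fold (adjusted p = 6.83e-13). MCM7 (Mve15G000520) fell 6.12-fold to 3.23 ± 0.544 CPM, MCM6 (Mve07G000250) 5.84-fold to 2.94 ± 0.146 CPM and MCM4 (Mve06G007430) 3.9-fold to 8.63 ± 0.872 CPM. MCM3 (Mve18G003650) was at 20.4 ± 3.04, 19.1 ± 0.356 and 5.87 ± 1.01 CPM at 7.5, 4 and 2 mg/L, and MCM2 (Mve08G013850) at 35.4 ± 3.14, 30.2 ± 2.68 and 12.9 ± 2.21 CPM. The catalytic subunit of DNA polymerase delta (Mve16G007650) fell 5.02-fold to 6.29 ± 0.92 CPM. The rises included a GEN1-like flap endonuclease (Mve10G010300), at 0.529 ± 0.194 CPM in control, 55.7 ± 3.44 CPM at 4 mg/L and 18.4 ± 2.29 CPM at 2 mg/L, and a DNA ligase 1 copy (Mve18G000560) at 1.88 ± 0.258, 17.7 ± 2.46 and 10.4 ± 1.15 CPM.

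Genes of cell division and DNA repair fell more often than they rose. In the mitosis and cell cycle list 27 of 69 fell and 14 rose (under total-count scaling 36 and 9). The cyclin-dependent kinase inhibitor 1B-like gene (Mve05G010760, chromosome 5, 32920563 to 32925704), a brake on entry into S phase, was at 67.6, 73.6 and 64.9 CPM in the control libraries, 93.8, 89 and 83.1 CPM at 4 mg/L and 237, 257 and 259 CPM at 2 mg/L. It rose 3.65-fold over control (adjusted p = 7.16e-14) and 2.83-fold over 4 mg/L (adjusted p = 9.3e-13), with no overlap. The naming rule took from this list the falls of the kinetochore proteins centromere protein H (Mve10G007530), 5.76-fold to 1.72 ± 0.419 CPM, and Spc24-like Mve01G018060, 4.77-fold to 3.43 ± 1.29 CPM. In the DNA repair list 30 of 67 fell and 16 rose. MCM8-like Mve16G011100, a helicase of recombination repair, fell 16.6-fold from 21.7 ± 2.02 to 1.31 ± 0.282 CPM. XRCC1 (Mve11G010130), a scaffold of single-strand break repair, fell 6.77-fold to 1.34 ± 0.421 CPM, and the excision nuclease XPF-like (Mve03G008200) 4.28-fold to 2.09 ± 0.654 CPM. The Bloom syndrome helicase (Mve10G006620) fell 3.91-fold to 3.95 ± 0.27 CPM, much as at 4 mg/L (3.81 ± 0.169 CPM). The 3 rises that the naming rule took from the repair list, the largest among members averaging at least 5 CPM, were all described as poly(ADP-ribose) polymerase 14, an enzyme better known in mammals for immune signalling than for repair, and lay on chromosome 13 at 6.6-fold (Mve13G011930), 5.83-fold (Mve13G007980) and 4.11-fold (Mve13G008550). Of KEGG groups, DNA replication had 24 of 36 genes lower and 3 higher. Mismatch repair had 13 of 22 and 2, and homologous recombination 19 of 30 and 2. All were described because their medians were among the 6 lowest. They are not separate evidence, since MCM5, MCM6 and MCM7 were in both the replication list and its KEGG group. DNA polymerase delta (Mve16G007650) was in the mismatch repair and homologous recombination groups alike. In the GO group of DNA recombination 15 of 23 fell and 4 rose. Gonad markers moved in the same direction: 12 of 22 tested fell and 2 rose, and their sum was 1605 to 1665 CPM in control, 983 to 994 CPM at 4 mg/L and 981 to 988 CPM at 2 mg/L. Of 29 matched, 2 were at 0 in control and 5 at 2 mg/L, and 11 of the 12 falls were of genes described as vitelline membrane outer layer protein 1. Their part in the falls of replication, division and repair genes was not tested.

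**Figure D3:**
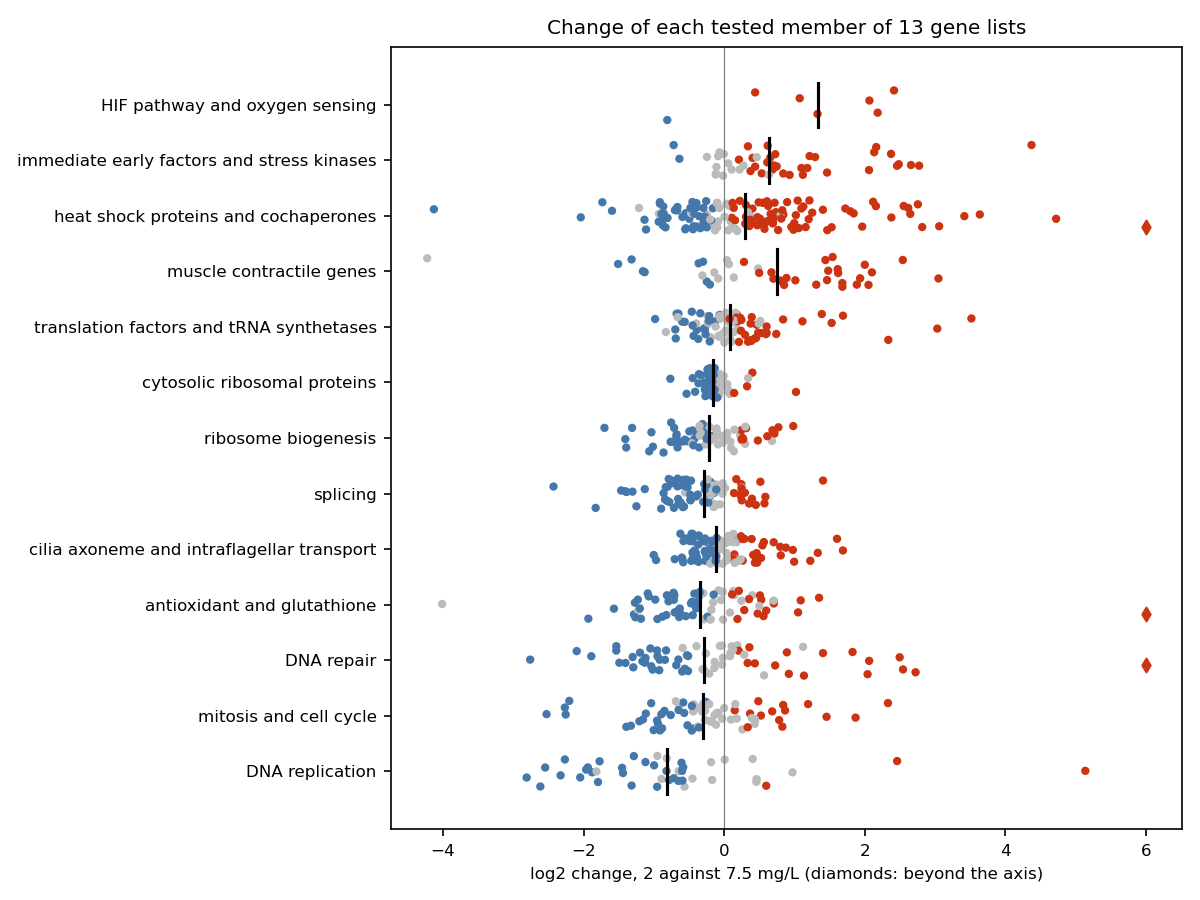
Log2 change at 2 against 7.5 mg/L of each tested member of 13 gene lists; red points rose, blue points fell, grey points did not pass, black bars are list medians and diamonds lie beyond the axis. DNA replication genes lie mostly left of 0 and cytosolic ribosomal proteins form a narrow band just below it, whereas immediate early and stress kinase genes lie mostly to the right.

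Genes of ribosomes, ribosome assembly and splicing fell more often than they rose, most by small amounts. Of 61 cytosolic ribosomal protein genes 38 fell and 4 rose, with a median log2 change of -0.16. Against 4 mg/L 48 were higher at 2 mg/L and 13 did not pass (median log2 difference 0.24), with 30 higher and 2 lower under total-count scaling. The 4 rises against control became 1 or 2 without control replicate 1 or 2 or without replicate 2 or 3 at 2 mg/L. L27-like Mve12G001410 showed the largest fall of the list, 1.7-fold from 236 ± 19.7 to 139 ± 6.32 CPM. In ribosome biogenesis 29 of 68 fell and 12 rose (39 and 5 under total-count scaling), with the nucleolar protein IMP (Mve14G011080) 3.26-fold lower at 4.58 ± 0.759 CPM and WD repeat protein 3 (Mve05G014830) 2.65-fold lower at 7.31 ± 0.463 CPM. In splicing 47 of 81 fell and 15 rose (median log2 change -0.28), or 62 and 6 under total-count scaling. U1 small nuclear ribonucleoprotein A (Mve16G000670), which recognises the start of introns as part of U1, was at 23.4, 21.9 and 20.6 CPM in the control libraries, 10.4, 10.4 and 7.12 CPM at 4 mg/L and 3.72, 5.74 and 2.72 CPM at 2 mg/L. It fell 5.38-fold without overlap (adjusted p = 4.41e-08). An arginine/serine-rich splicing factor 18 (Mve05G002910) fell 2.76-fold from 181 ± 4.84 to 65.6 ± 3.56 CPM. Mitochondrial ribosomal proteins were split, 13 up and 11 down of 49 (6 and 13 under total-count scaling).

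Translation factors and tRNA synthetases rose in 31 of 82 cases and fell in 21, but in 19 and 36 under total-count scaling. The largest rises were 3 copies of eIF4A, the RNA helicase that unwinds mRNA leaders. Mve02G014010 was at 3.37, 3.03 and 2.17 CPM in the control libraries, 23.9, 21.3 and 23.1 CPM at 4 mg/L and 25.8, 32.4 and 39.5 CPM at 2 mg/L. It rose 11.4-fold in order of oxygen (adjusted p = 2.26e-11). Mve07G010310 reached 72.1 ± 3.19 CPM, 8.17-fold above control, and Mve13G006390 27.7 ± 2.69 CPM, 5.04-fold above it. Genes that share a description, here and among the receptors, lectins, heat shock and tripartite motif genes, may share reads, so their separate values are uncertain.

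The 12 largest rises among described, non-overlapping genes averaging at least 10 CPM were of genes nearly silent in control and low at 4 mg/L. Ranking by fold favours low control levels, and these genes passed the CPM minimum through their 2 mg/L libraries. Their near silence in control thus follows largely from the rule and is no separate result. Among the 12 genes were ion cotransporters, a chitinase, an extracellular superoxide dismutase and proteins named for shell, while saxiphilin-like, SCO-spondin-like and temptin genes belong to other families. The SLC12A3-like gene Mve10G001610 (chromosome 10, 6247155 to 6268154), of the family that cotransports sodium and chloride, had 0 counts in the 3 control libraries, 0, 0.186 and 0.468 CPM at 4 mg/L and 41.5, 44.3 and 42.1 CPM at 2 mg/L. Against the floor of 3 counts over the control group it was at least 1378-fold higher (adjusted p = 2.1e-11). Chitotriosidase-1 (Mve01G001970), a chitin-cutting enzyme, also had 0 control counts and reached 26 ± 2.47 CPM, at least 841-fold higher. Temptin (Mve01G008120), first known as a water-borne pheromone protein of sea hares, went from 0 control counts to 21 ± 0.94 CPM, at least 680.3-fold higher. An extracellular copper/zinc superoxide dismutase (Mve05G004020, chromosome 5, 10528735 to 10540195), which turns superoxide into peroxide, was at 0.281, 0.118 and 0 CPM in the control libraries, 0.309, 0 and 1.56 CPM at 4 mg/L and 87.2, 92.8 and 84.5 CPM at 2 mg/L. The 2 mg/L libraries lay far above the rest, 686-fold over control and 141-fold over 4 mg/L (adjusted p = 2.37e-11 and 4.41e-11). The electrogenic sodium bicarbonate cotransporter 1-like gene (Mve19G006690, chromosome 19, 26025419 to 26048983), which moves base across membranes, was at 0.877, 0.529 and 0.352 CPM in the control libraries, 0.896, 0.744 and 1.59 CPM at 4 mg/L and 93.1, 104 and 89 CPM at 2 mg/L. It rose 166-fold (adjusted p = 7.73e-15), and the control and 4 mg/L libraries overlapped. Of the same set were shell matrix protein-like Mve11G012680 (to 73.4 ± 1.94 CPM, 315-fold), insoluble matrix shell protein 1 (Mve15G005280, to 29.1 ± 3.76 CPM, 183-fold), P-U8 (Mve16G000910, to 37.6 ± 5.17 CPM, 434-fold) and saxiphilin-like Mve07G007230 of the transferrin family (to 71.3 ± 6.52 CPM, 122-fold). Alkaline phosphatase-like Mve10G011110 reached 34.9 ± 4.61 CPM (108-fold) and SCO-spondin-like Mve09G003830, a large secreted glycoprotein, 30.0 ± 5.07 CPM (105-fold). Tyrosinase Mve11G003960, an oxidase of shell pigment and periostracum, had 3 counts in control and was at 3.63 ± 0.525 CPM at 4 mg/L and 20.2 ± 3.6 CPM at 2 mg/L. A Notch1-like gene (Mve17G008190) went from 0.0391 ± 0.0678 to 19.2 ± 0.59 CPM, and short-chain collagen C4-like Mve04G000630 from 3.44 ± 0.773 to 104 ± 8.43 CPM (30.1-fold).

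As a list, shell, tyrosinase and chitin genes did not lean one way: 7 of 19 rose and 7 fell. Of 40 genes matched as mantle and shell markers, 13 passed the filter, 5 rising and 4 falling. Their summed level was 208 to 223 CPM in control, 142 to 151 CPM at 4 mg/L and 259 to 281 CPM at 2 mg/L, with 13 at 0 counts in control and 20 at 0 at 2 mg/L. Without Mve03G005040, the highest in control, the sum was 68.9 to 72.0 CPM in control, 86.6 to 93.0 CPM at 4 mg/L and 193 to 214 CPM at 2 mg/L. The names matched include temptin, shell matrix protein and tyrosinase, as do the largest rises above. The sum is therefore not a sign of mantle tissue separate from those rises. Muscle markers moved in the same libraries: 10 of 15 rose and 2 fell, and their sum was 3727 to 3807 CPM in control, 3525 to 3751 CPM at 4 mg/L and 11704 to 14423 CPM at 2 mg/L, with 1 of 15 at 0 counts at 2 mg/L. The part of either cell type in these rises was not tested. In the muscle contractile list 24 of 40 rose and 8 fell (median log2 change 0.75). Paramyosin (Mve09G008510), the core of thick filaments in molluscan muscle, was at 374, 359 and 355 CPM in the control libraries, 462, 450.2 and 543 CPM at 4 mg/L and 2889, 2623 and 3487 CPM at 2 mg/L. All 2 mg/L libraries lay above all others, 8.27-fold over control (adjusted p = 1.19e-14). A PDZ and LIM domain protein (Mve16G007800) rose 5.82-fold to 56.5 ± 6.35 CPM, while filamin-A-like Mve15G004040, an actin crosslinker, fell 2.49-fold to 112 ± 2.66 CPM. Collagens, integrins and matrix genes rose in 42 of 88 cases and fell in 26. The neighbouring genes Mve01G005080 and Mve01G005090 on chromosome 1, described as collagen alpha-2(I) chain-like, stood at 763 ± 56.8 CPM (6.12-fold above control) and 4501 ± 67.4 CPM (2.84-fold).

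**Figure D4:**
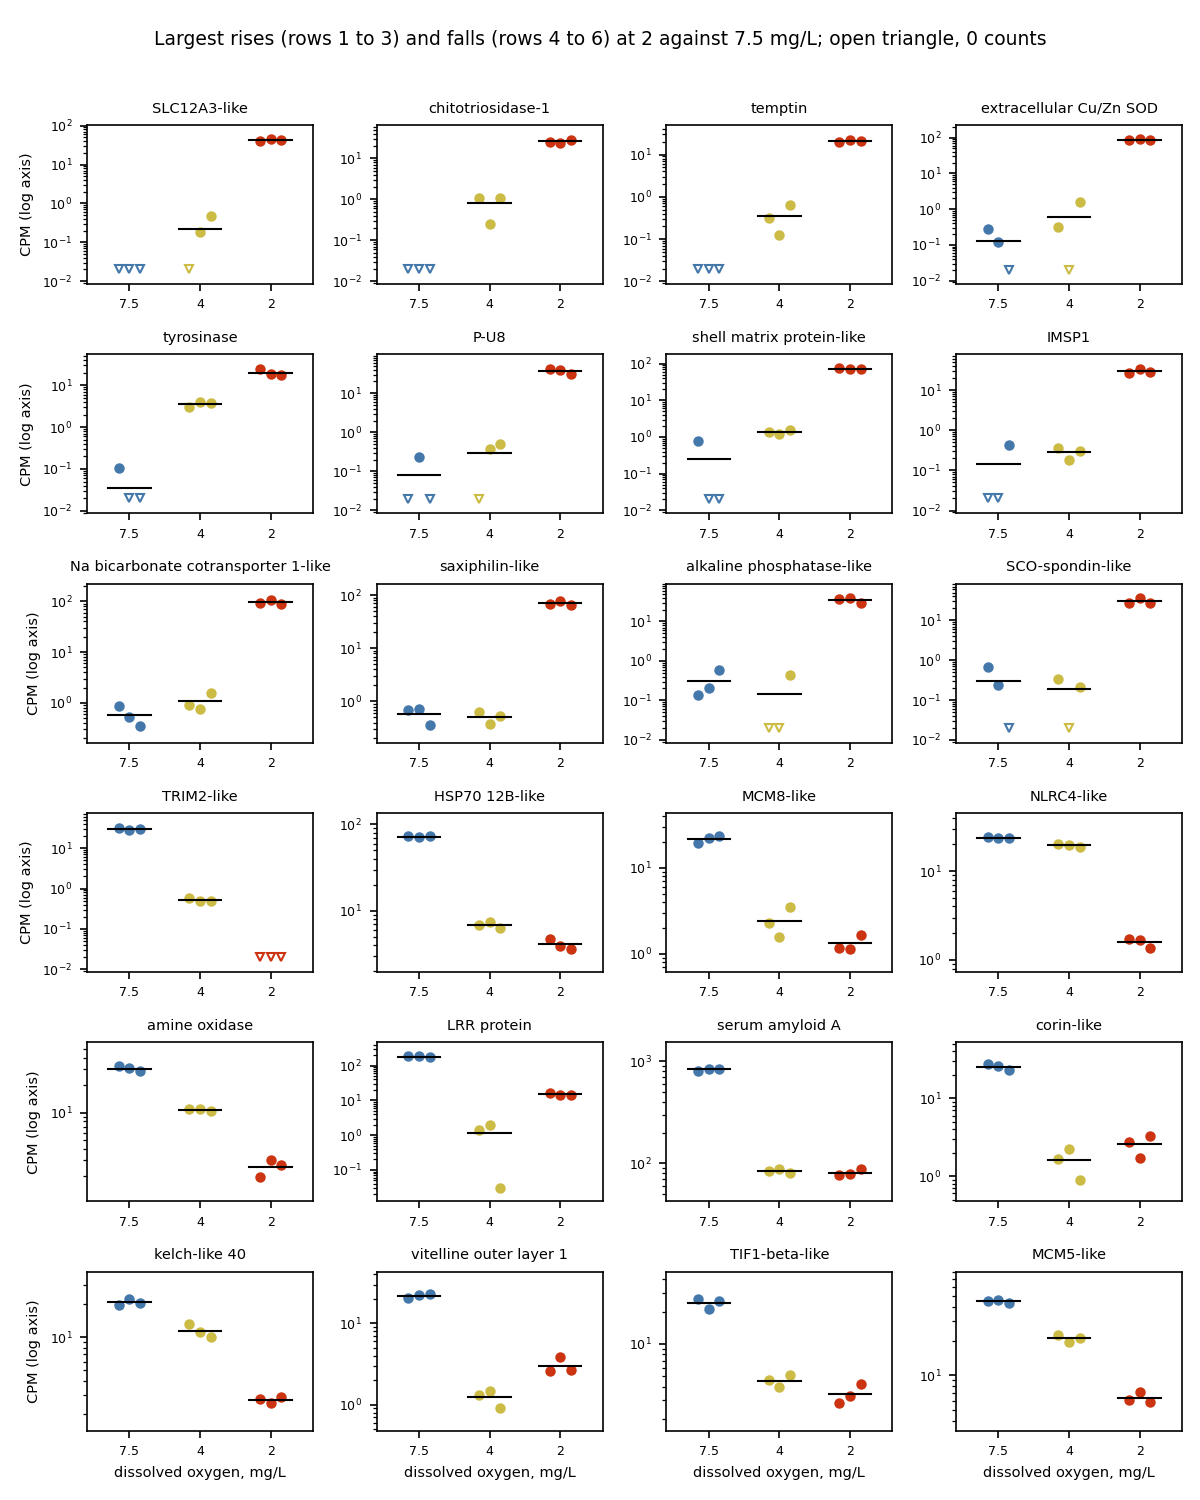
CPM (log axis) in each of the 9 libraries, by dissolved oxygen in mg/L, of the 12 largest rises and 12 largest falls among described genes averaging at least 10 CPM; points are libraries (blue 7.5, yellow 4, red 2 mg/L), black lines group means, and open triangles libraries with 0 counts, drawn at a fixed low position. The rising genes were below 1 CPM in every control library, which a ranking by fold favours. The falling genes were also lower than control at 4 mg/L, the NLRC4-like gene least so.

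**Figure D5:**
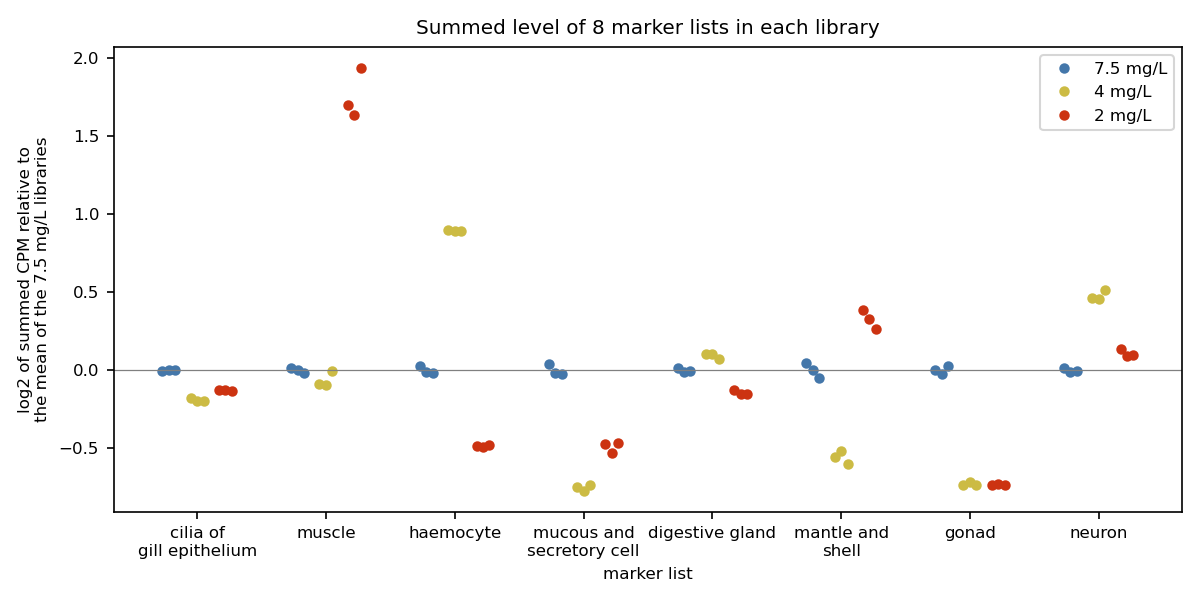
Log2 of the summed CPM of 8 marker lists in each library, relative to the mean of the 7.5 mg/L libraries; each point is a library, blue 7.5, yellow 4 and red 2 mg/L. Muscle markers were higher at 2 mg/L, haemocyte markers were lower there and higher at 4 mg/L, and the sums of gonad and mucous markers were lower in both hypoxic groups, although without the mucin-16-like gene Mve12G008090 the mucous sums at 2 mg/L overlapped those of control.

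Salt, water and nitrogen transport changed gene by gene. Of 61 ion pumps, carbonic anhydrases and water channels 20 rose and 20 fell (17 and 27 under total-count scaling), and of 182 solute carriers 49 rose and 59 fell (36 and 72). The SLC12A2-like gene (Mve10G004350), a sodium, potassium and chloride cotransporter, rose 10.1-fold from 2.23 ± 0.785 to 22.7 ± 1.89 CPM. Carbonic anhydrase 14-like Mve11G000310, which hydrates carbon dioxide, went from 0.46 ± 0.399 to 7.99 ± 1.13 CPM. Aquaporin-5-like Mve06G006830, a water channel, was at 84, 90.2 and 80.2 CPM in the control libraries, 11.2, 9.85 and 10.5 CPM at 4 mg/L and 12.9, 16.9 and 17 CPM at 2 mg/L. Both hypoxic groups lay below control, 5.44-fold at 2 mg/L (adjusted p = 1.97e-12). Aquaporin-1-like Mve18G004370 fell 4.79-fold to 4.52 ± 1.0 CPM. Ammonium transporter 1 (Mve16G004240) was at 54.9, 46.6 and 43.9 CPM in the control libraries, 81.7, 75 and 83.6 CPM at 4 mg/L and 12.3, 12.9 and 15.8 CPM at 2 mg/L. It was highest at 4 mg/L and lowest at 2 mg/L, 3.55-fold below control and 5.87-fold below 4 mg/L (adjusted p = 1.12e-10 and 1.19e-12). A betaine transporter (Mve06G010360), which takes up an osmolyte, fell 3.54-fold to 25 ± 1.71 CPM and monocarboxylate transporter 2 (Mve02G006930) 4.52-fold to 2.47 ± 0.486 CPM. Both were lower still at 4 mg/L, at 5.12 ± 0.209 and 1.11 ± 0.0509 CPM.

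Antioxidant and glutathione genes fell more often than they rose. In the antioxidant and glutathione list 36 of 73 fell and 16 rose (median log2 change -0.35), or 43 and 11 under total-count scaling. An omega glutathione S-transferase (Mve06G012360) was at 35.6, 29.6 and 34.5 CPM in the control libraries, 14.1, 19.5 and 13.2 CPM at 4 mg/L and 10.1, 8.33 and 7.67 CPM at 2 mg/L. It fell in order of oxygen without overlap, 3.82-fold (adjusted p = 8.89e-09). A microsomal transferase (Mve09G013470) fell 2.4-fold to 53.3 ± 3.9 CPM and a theta transferase (Mve02G006910) 2.43-fold to 12.7 ± 0.774 CPM. Beside the extracellular dismutase, the rises included a gamma-glutamylcyclotransferase (Mve02G005750), an enzyme that degrades glutathione, which rose 2.07-fold to 66.2 ± 7.25 CPM. In the GO group of glutathione peroxidase activity, which holds such transferases, 9 of 17 fell and 2 rose, and in the KEGG group of ascorbate and aldarate metabolism 9 of 15 fell and 2 rose. The GO groups of iron assimilation and of the high-affinity iron permease complex held the same counts, 8 of 15 lower and 2 higher, and that of iron ion transport 10 of 19 and 2. Their named members are described not as iron transporters but as laccases, which are copper oxidases, such as Mve18G006840, 3.59-fold lower at 1.07 ± 0.245 CPM, and Mve08G005460, 3.68-fold lower at 1.1 ± 0.0491 CPM. Among 19 iron, copper and oxygen carriers 5 rose and 8 fell, with a ferric-chelate reductase 1-like gene (Mve04G005420) going from 0.286 ± 0.11 to 11.4 ± 0.291 CPM. The 99 cytochrome P450, sulfotransferase and glucuronosyltransferase genes were split, 32 up and 27 down, and 25 and 39 under total-count scaling. A cytochrome P450 on chromosome 7 (Mve07G010720) rose 16.3-fold to 23.2 ± 4.61 CPM and P450 2J6 (Mve05G012350) 6.58-fold to 53.7 ± 3.35 CPM, whereas 1A1-like Mve14G010090 fell 3.79-fold to 2.91 ± 0.598 CPM and the drug exporter MRP1 (Mve17G004100) 5.15-fold to 5.99 ± 1.83 CPM.

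Ciliary genes fell more often than they rose, by small amounts. Of 105 axoneme and intraflagellar transport genes 46 fell and 27 rose, with a median log2 change of -0.11 and 1 fall and 4 rises of at least 2-fold (in all 59 falls and 18 rises under total-count scaling). That fall was of axonemal dynein heavy chain 2 (Mve15G004140), a motor of ciliary beating, from 155 ± 4.86 to 77.2 ± 1.88 CPM, and the transport protein IFT140 (Mve01G004490) rose 3.22-fold to 18.8 ± 4.96 CPM. In cell contacts 28 of 86 genes rose and 36 fell (19 and 41 under total-count scaling). An innexin unc-9-like gene (Mve19G001990), a gap junction channel of invertebrates, was at 130.1, 130.0 and 124 CPM in the control libraries, 757, 766 and 799 CPM at 4 mg/L and 447, 438 and 456 CPM at 2 mg/L. It was highest at 4 mg/L and rose 3.5-fold at 2 mg/L (adjusted p = 3.21e-16). A Fat-like cadherin (Mve06G007870) rose 4.4-fold to 19.9 ± 0.73 CPM. In Wnt, Notch, TGF-beta and growth factor signalling 25 of 57 rose and 14 fell (17 and 20 under total-count scaling), with a Notch gene on chromosome 15 (Mve15G000720) 3.31-fold lower at 8.94 ± 1.21 CPM.

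Among receptors for transmitters and neuropeptides 43 of 143 rose and 40 fell, and 31 and 51 under total-count scaling. A cholecystokinin receptor (Mve02G011650) rose 5.07-fold to 26.8 ± 1.86 CPM and a neuropeptide FF receptor (Mve10G000840) 4.91-fold to 32.6 ± 3.12 CPM, while acetylcholine receptor subunits, which form ligand-gated channels, fell 6.22-fold (Mve10G006180, to 1.85 ± 0.304 CPM) and 3.48-fold (Mve13G011880, to 6.95 ± 0.705 CPM). Neuron markers rose in 7 of 18 cases and fell in 4, with a summed level of 301 to 306 CPM in control, 416 to 433 CPM at 4 mg/L and 323 to 334 CPM at 2 mg/L; of 47 matched, 3 were at 0 counts in control and 3 at 2 mg/L, and their part was not tested. Homeobox, Sox, forkhead and nuclear receptor factors had 39 rises and 39 falls among 98, and 31 and 44 under total-count scaling. Retinoic acid receptor alpha-like Mve18G004850 rose 3.09-fold to 60.5 ± 5.79 CPM and the homeobox gene Nkx-2.1 (Mve02G014120) fell 2.77-fold to 15.3 ± 1.51 CPM. Of 23 mucins and secreted gel proteins 7 rose and 4 fell, 5 and 9 under total-count scaling, with the abundant mucin-16-like Mve12G008090 1.55-fold lower at 2425 ± 58.2 CPM. Mucous cell markers, which include these genes, summed to 4427 to 4633 CPM in control, 2643 to 2711 CPM at 4 mg/L and 3127 to 3264 CPM at 2 mg/L, with 6 of 22 tested rising and 4 falling (5 and 9 under total-count scaling). Without mucin-16-like Mve12G008090 the sum was 732 to 776 CPM in control, 787 to 814 CPM at 4 mg/L and 754 to 838 CPM at 2 mg/L. Of 39 matched, 2 were at 0 counts in control and 6 at 2 mg/L. Of 3 histone genes tested 2 rose and 1 fell.

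Per gene length, the 10 transcripts with the highest levels in gill at 2 mg/L were those of ferritin, tubulins, polyubiquitins, actin, an elongation factor, the collagen Mve01G005090 described above and genes with no description. The levels are the deposited FPKM values, whereas the folds are those of the TMM-scaled counts and so differ from ratios of the FPKM values. Ferritin 2 (Mve08G009170), which stores iron, led at 9741 ± 228 FPKM, against 12557 ± 411 FPKM in control, and its scaled counts fell 1.13-fold. Tubulin, the subunit of microtubules, was represented by a beta chain-like gene (Mve07G014090, 8927 ± 81.1 FPKM, 1.12-fold higher) and alpha-1A (Mve08G009830, 7639 ± 129.6 FPKM, 1.34-fold higher). The sign of the beta chain turned under total-count scaling (log2 change -0.040, adjusted p = 0.203). Mve01G020700 and Mve14G002560, which carry no description, stood at 8738 ± 229.6 and 7580.2 ± 287 FPKM, the first 1.32-fold higher and the second 2.47-fold lower than in control. Polyubiquitin-C, the source of free ubiquitin, came from a pair of genes, Mve08G001270 at 5631 ± 123 FPKM (1.77-fold higher) and Mve09G011060 at 5494 ± 54.9 FPKM (1.3-fold higher). The first of them was 1.14-fold above 4 mg/L. Elongation factor 1 alpha (Mve18G005250), which brings tRNA to the ribosome, stood at 5899.5 ± 20.8 FPKM and fell 1.16-fold. Beta-actin (Mve03G004470) at 6935 ± 55.4 FPKM did not pass the test (log2 change 0.03 ± 0.03 (SE), adjusted p = 0.369), but its sign turned and it passed under total-count scaling (log2 change -0.17, adjusted p = 8.79e-07).

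The remaining large falls named by the rule were of an enzyme, a kelch protein, a leucine-rich repeat protein and others. A copper amine oxidase (Mve07G000040), which deaminates amines, was at 32.3, 31.1 and 28.5 CPM in the control libraries, 10.9, 11.1 and 10.5 CPM at 4 mg/L and 1.94, 2.97 and 2.64 CPM at 2 mg/L. It fell 12.2-fold in order of oxygen (adjusted p = 2.16e-12). Kelch-like protein 40 (Mve14G010040) fell 7.68-fold to 2.71 ± 0.179 CPM and was 4.23-fold below 4 mg/L. It is known in mammals as a protein of striated muscle. A leucine-rich repeat gene (Mve04G004040) was at 181 ± 5.98 CPM in control, 1.13 ± 0.984 CPM at 4 mg/L and 15 ± 1.46 CPM at 2 mg/L, so that its level was higher at 2 than at 4 mg/L (adjusted p = 1.63e-08). A corin-like protease (Mve09G013440) fell 9.86-fold, vitelline membrane outer layer protein 1 (Mve11G001880) 7.23-fold and a TIF1-beta-like gene (Mve17G010350) 7.04-fold, to 2.59 ± 0.804, 3.02 ± 0.704 and 3.44 ± 0.732 CPM.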

How the data were processed

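Paired 150-base reads of poly(A) RNA, from a strand-marking library kit, were made by the submitters, per the labels' protocols. Per the submitters' processing notes, cutadapt 1.9, HISAT2 2.2.1, StringTie 2.1.6, DESeq2 and edgeR were used. Genome build, counting tool and strand setting are not given in the sources used here. Raw counts are whole numbers in the deposited table, which also holds, as separate columns, FPKM values made by the authors for each of 24722 genes in 9 libraries, with descriptions, GO and KEGG terms. All libraries carry 1 batch date in the labels.

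Libraries were grouped by their oxygen labels. The deposited counts were fitted in edgeR 4.0.16 (R 4.3.3; TMM, quasi-likelihood, 9 libraries together, no covariate), with contrasts of 2 against 7.5 and 2 against 4 mg/L and Benjamini-Hochberg adjustment over the 15397 genes averaging 1 FPKM or more. Precision rests on 26994566 to 32246147 counts per library and a common biological coefficient of variation of 11.8%. Deposited FPKM served the filter and levels between genes. Lists of genes and 8 lists of cell type markers were matched by patterns in the descriptions, with exclusions corrected for wording after the table was read; members and lists were chosen with earlier results of these data known. GO and KEGG groups of 15 to 300 tested genes are described without a test, those with the 6 highest and 6 lowest medians of each. Named genes were the 12 largest rises and falls among described, called, non-overlapping genes averaging at least 10 CPM, up to 3 each way per list averaging at least 5 CPM, the 10 highest by FPKM, the 5 each way farthest from both other groups and up to 3 per described GO or KEGG group; not every one is printed, and genes outside the rule are marked. The tests were also run on simulated counts in which 200 genes were changed. In the data 63.5% of tested genes were called, so that run does not bear on the choice of scaling. Alternatives used limma 3.58.1 and DESeq2 1.42.0. Replicates differed by more than counting noise and each was counted as a library, which does not show that they came from different animals.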

Additional observations from a re-analysis of the deposited data

How the results depend on the processing

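Counts higher and lower at 2 against 7.5 mg/L stayed within 1.5 times of 4847 and 4924 under median-of-ratios, total-count and upper-quartile scaling, the other filters but 1, DESeq2, limma and a fit to the compared groups. They were 2970 and 3005 with a minimum of 5 FPKM, which tests 8321 genes, and 2131 and 1741 with a 2-fold minimum. Against 4 mg/L those settings gave 2991 and 2932, and 2145 and 2014. Total-count scaling moved the median of all genes to -0.23 and limma on log2(FPKM + 1) gave 35.9% of calls as higher, against 49.6%. Leaving out 1 library at a time gave 4564 to 4910 higher and 4543 to 4905 lower against 7.5 mg/L, and 4578 to 4848 and 4472 to 4910 against 4 mg/L.

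Same-numbered libraries did not deviate together (correlations over genes -0.03 to 0.01, with the own number the best match in 2 of 18 cases). A fit with the replicate number as a block gave 4722 and 4786 against 7.5 mg/L and 4731 and 4800 against 4 mg/L. Of 84 list counts, total-count scaling moved 16 by over 1.5 times, upper-quartile scaling 5, the minimum of 5 FPKM 33, limma 21, DESeq2 0 and the block 1. The sign of the fold turned for 2 of the genes printed. Beta-actin (Mve03G004470) had log2 changes of -0.17 under total-count scaling, -0.043 under upper-quartile scaling, -0.17 by limma on log2(FPKM + 1) and -0.17 on log2(FPKM + 0.1), and tubulin beta (Mve07G014090) -0.040 under total-count scaling and -0.035 by limma with either pseudocount. In the main fit their log2 changes were 0.03 and 0.16, and total-count scaling moved the median over all genes from -0.03 to -0.23. Which scaling is nearer the true levels was not tested. The 2-fold minimum was not run for single genes. Depth limits the folds of the largest rises, whose control levels rest on few counts (12 over 3 libraries for superoxide dismutase Mve05G004020). Among low counts, values of 2 and 4 (2649 and 3567) were more frequent than 1 and 3 (1855 and 1914). The reason was not tested. If 1 fragment can give 2 counts, the floor of 3 counts is too low and the folds given as "at least" are too high.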

Other observations

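Copies that share a description did not always change together. Among genes on chromosome 10 described as 40S ribosomal protein S6-like, a protein of the small ribosomal subunit, Mve10G002420 was at 285, 279.8 and 316 CPM in the control libraries, 595, 585 and 625 CPM at 4 mg/L and 557, 609 and 620.1 CPM at 2 mg/L. It rose 2.03-fold with no overlap with control (adjusted p = 1.96e-11, edgeR quasi-likelihood test). Mve10G002520 was at 2284, 2242 and 2262 CPM in the control libraries, 1136, 1152 and 1218 CPM at 4 mg/L and 1525, 1623 and 1537 CPM at 2 mg/L. It fell 1.45-fold (adjusted p = 3.76e-10), and reads of the copies may be shared. Interferon-induced protein 44 on chromosome 11 (Mve11G000290) fell 3.03-fold to 9.71 ± 0.504 CPM, against the rise of the genes of that family on chromosome 14. Among C1q genes, whose vertebrate relatives recognise microbes, complement C1q-like protein 2 (Mve03G015690) fell 2.99-fold from 227 ± 2.01 to 75.9 ± 8.21 CPM and C1q and tumor necrosis factor-related protein 4 (Mve05G007300) rose 2.43-fold from 17.1 ± 2.06 to 41.5 ± 3.14 CPM.

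Single genes of defence, amino acid sensing and digestion differed between the 2 hypoxic levels. A sushi and pentraxin domain protein (Mve02G010780) was at 32.6, 33.1 and 26.5 CPM in the control libraries, 1411, 1389.6 and 1424 CPM at 4 mg/L and 155, 153 and 139.9 CPM at 2 mg/L. It was 4.87-fold above control at 2 mg/L but 9.42-fold below 4 mg/L (adjusted p = 1.59e-14 and 1.35e-16). The amino acid sensor eIF2-alpha kinase 4 (Mve02G002960), which slows translation when amino acids run short, was at 3.72 ± 0.679 CPM in control, 19.6 ± 1.9 CPM at 4 mg/L and 7.81 ± 1.31 CPM at 2 mg/L. Higher at 2 than at 4 mg/L were a GTPase IMAP 4-like gene (Mve04G003700, 0.0624 ± 0.108 and 14.2 ± 1.93 CPM at 4 and 2 mg/L) and a pancreatic lipase-related gene (Mve03G012110, 1.02 ± 0.87 and 16 ± 0.246 CPM). Relative to control, lysozyme (Mve01G000880), which cuts bacterial walls, rose 2.16-fold to 70.7 ± 3.15 CPM and mucin-4-like Mve06G001160 2.52-fold to 18.1 ± 0.556 CPM. The largest rise in the list of immediate early factors and stress kinases, outside the naming rule and chosen after its value was seen, was that of dual specificity phosphatase 7-like Mve08G009940, an inactivator of ERK kinases in mammals, from 0.313 ± 0.285 to 6.83 ± 1.39 CPM. ATP synthase subunit s (Mve10G004220) rose 1.55-fold from 61.3 ± 4.1 to 94.9 ± 6.42 CPM.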
